A study of Mus musculus with 6 samples.

Results

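The genes of the mouse major histocompatibility complex (MHC) were examined in messenger RNA of crypt epithelium. All rows of the deposited table whose symbol starts with H2- were taken, plus B2m, the gene of the class I light chain, which gave 45 of 24930 genes. The list was not chosen by measured values. The tissue is the cell layer that lines the intestinal crypts, sampled from mice as primary epithelium. 3 libraries were labelled β-catenin GOF/+, which carry 1 mutant, gain-of-function allele of the β-catenin gene beside 1 normal allele, at day 4 after that allele was induced. These are called mutant below. The other 3 libraries were labelled control, and the labels do not describe the controls' alleles further. No label names the strain, the H2 haplotype, the age, the driver of the recombination or whether each library came from its own animal, so the p-values measure only the spread between these libraries.

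MHC class I molecules carry peptides made inside a cell to its surface, where CD8 T cells read them. A heavy chain from an H2-K, H2-D or, in some mice, H2-L gene pairs with the light chain β2-microglobulin. Class Ib heavy chains of the Q, T and M regions are related, mostly less variable molecules, several of which are read by natural killer or unconventional T cells. Class II molecules are pairs of an alpha and a beta chain that present peptides from taken-up protein to CD4 T cells, and the crypt and villus epithelium can make them as well as leukocytes. MHC genes are highly polymorphic, and inbred mouse strains differ in which H2 genes they carry or express. H2-L is absent from some haplotypes, and the alpha chain gene of the E molecule is not functional in some. A value mapped to a single reference genome can therefore depend on the haplotype of the animal.

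Values are the authors' normalized abundance per gene, called units here, and behave as reads per transcript length, so levels may be compared between genes within these limits. Steps among the lowest values put 1 read of a transcript of 1500 bases at 0.035 to 0.055 units, depending on the library, and relative reads per unit lay between 0.884 (mutant replicate 3) and 1.43 (control replicate 3). The absolute number of reads was not given and no counting interval was made. The summed level of 8 epithelial genes, such as Epcam, Vil1 and Krt8, was 4680.1, 5183 and 5717 units in control replicates 1 to 3 and 6430.0, 5308 and 7111 units in mutant replicates 1 to 3, and none of the 8 was at 0 in a library. Mutant replicate 3 stood apart from the other 5 libraries in the interferon response and MHC genes described below, so values without it stand beside many of the results.

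Of the 45 genes, 29 had 6-library means of 1 unit or more and were tested, 11 were detected below that mean and 5 were at 0 in all libraries. With limma, 0 of the 29 passed an adjusted p of 0.05, where 0.0169% of the 11837 genes tested passed in either direction. At an unadjusted p under 0.05, 2 of the 29 were called, H2-L and H2-Q10, beside 8.31% of all genes tested. H2-Q10 was the 1 higher in mutant libraries, beside 4.72% of all genes, and H2-L the 1 lower, beside 3.59%. The 3 mutant values did not lie wholly above or below the 3 control values for any of the 29, beside 16.7% of all genes tested (8.34% wholly above and 8.37% wholly below). The levels instead followed single libraries. Mutant replicate 3 had the highest value for 24 of the 29 (82.8%, beside 29.7% of all genes tested) and control replicate 3 for the other 5, while control replicate 2 and mutant replicate 2 each had the lowest value for 11.

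**Figure D1:**
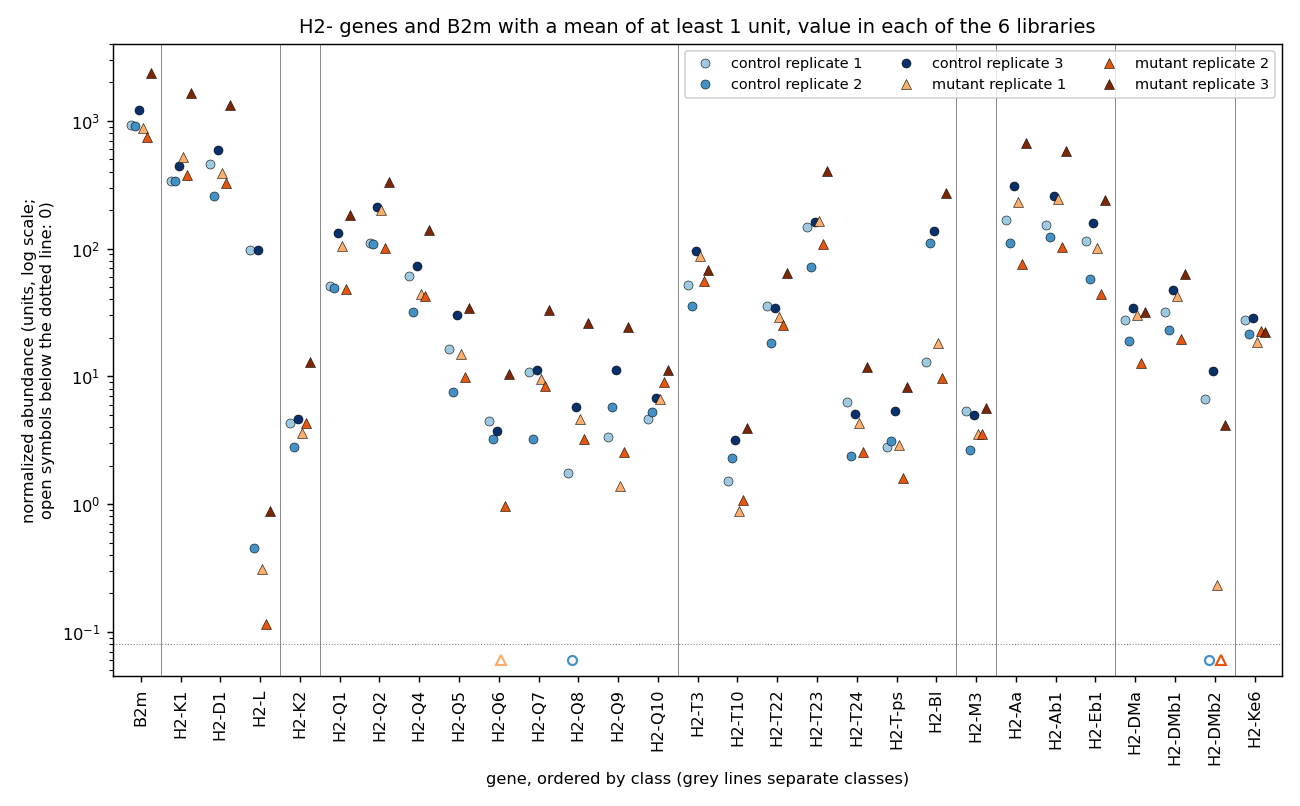
Normalized abundance (units, log axis) of the 29 tested genes, ordered by class, in each of the 6 libraries. Circles are control and triangles mutant libraries, and open symbols under the dotted line mark values of 0. The dark triangles of mutant replicate 3 are the highest point for 24 genes, and H2-L spreads over the widest range of the genes detected in every library.

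The proximal promoters of 6 members are shown because mutant replicate 3, the library highest in interferon response genes, led some of these genes by far and others little or not at all. Each run is 300 bases, 250 before and 50 after a RefSeq gene start on build GRCm38.p6, read 5′ to 3′ on the gene's strand. Capitals mark matches, on either strand, to 3 letter patterns: GGGANTNCC, a core bound by NF-kB, AANNGAAA, a core bound by interferon regulatory factors, and ATTGG, the inverted CCAAT box. The patterns do not overlap here and were chosen after these promoters had been read.
H2-K1, chr17:34000284-34000583, minus strand: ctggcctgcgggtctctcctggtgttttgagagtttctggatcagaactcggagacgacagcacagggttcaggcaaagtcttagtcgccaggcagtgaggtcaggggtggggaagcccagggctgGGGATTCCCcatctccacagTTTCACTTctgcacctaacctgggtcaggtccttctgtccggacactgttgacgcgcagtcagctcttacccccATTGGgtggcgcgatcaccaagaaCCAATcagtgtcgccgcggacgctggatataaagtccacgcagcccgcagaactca
H2-D1, chr17:35262844-35263143, plus strand: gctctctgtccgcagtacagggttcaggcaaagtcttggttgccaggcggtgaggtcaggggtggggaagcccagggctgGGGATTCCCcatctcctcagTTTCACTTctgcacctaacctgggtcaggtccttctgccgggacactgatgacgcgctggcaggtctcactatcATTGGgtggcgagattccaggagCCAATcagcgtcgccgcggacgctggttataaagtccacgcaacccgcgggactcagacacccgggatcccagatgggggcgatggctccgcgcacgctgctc
B2m, chr2:122147437-122147736, plus strand: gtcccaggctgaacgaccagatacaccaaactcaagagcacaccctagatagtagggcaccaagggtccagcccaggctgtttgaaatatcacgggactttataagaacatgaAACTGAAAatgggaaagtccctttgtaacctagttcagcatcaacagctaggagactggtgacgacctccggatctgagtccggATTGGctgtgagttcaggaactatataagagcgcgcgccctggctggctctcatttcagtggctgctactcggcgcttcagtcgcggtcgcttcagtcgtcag
H2-Aa, chr17:34287774-34288073, minus strand: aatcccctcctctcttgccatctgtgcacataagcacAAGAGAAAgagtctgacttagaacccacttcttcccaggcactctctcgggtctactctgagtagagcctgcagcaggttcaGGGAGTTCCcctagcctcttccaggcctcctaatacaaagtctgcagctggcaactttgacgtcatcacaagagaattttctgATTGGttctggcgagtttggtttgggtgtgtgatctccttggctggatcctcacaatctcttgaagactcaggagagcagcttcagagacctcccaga
H2-DMb1, chr17:34152941-34153240, plus strand: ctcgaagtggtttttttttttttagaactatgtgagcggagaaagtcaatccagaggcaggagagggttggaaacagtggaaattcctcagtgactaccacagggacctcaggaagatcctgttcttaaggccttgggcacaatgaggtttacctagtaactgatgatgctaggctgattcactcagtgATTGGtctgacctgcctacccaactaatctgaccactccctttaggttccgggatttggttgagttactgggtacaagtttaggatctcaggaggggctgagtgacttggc
H2-DMb2, chr17:34144999-34145298, plus strand: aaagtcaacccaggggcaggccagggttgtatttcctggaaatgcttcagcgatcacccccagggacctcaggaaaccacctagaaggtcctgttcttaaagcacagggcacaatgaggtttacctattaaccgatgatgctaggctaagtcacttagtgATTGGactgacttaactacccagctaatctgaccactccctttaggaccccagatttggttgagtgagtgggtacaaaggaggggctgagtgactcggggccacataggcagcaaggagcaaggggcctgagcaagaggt

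Promoters of 33 of the 45 members were in the RefSeq table, 19 of them tested members. The AANNGAAA pattern was in all 12 of the tested class I chain genes with a promoter, in 2 of 5 tested class II genes and in 26.7% of 27025 genes with a promoter window of the same length. GGGANTNCC was in 5 of the 12, in 1 of the 5 and in 4.57% of all genes. ATTGG was in 10 of the 12, in 5 of the 5 and in 41.1% of all genes. The patterns were chosen after the shown promoters had been read, and class I genes resemble each other in sequence, so these shares are not a test. In the windows of H2-K1 and H2-D1 the GGGATTCCC match began at -124 and -170 from the gene start and the TTTCACTT match at -104 and -150. H2-K1 had 2 promoters listed, of which 1 is shown, and these positions depend on the start chosen. The class II loading genes H2-DMb1 and H2-DMb2 held ATTGG alone. The AANNGAAA pattern and the lead of mutant replicate 3 did not go together in every tested gene. H2-T3, H2-DMa and H2-Ke6 held it, with mutant replicate 3 at 0.709, 0.926 and 0.774 times the highest other library. The other tested genes that held the pattern were highest in mutant replicate 3, at 1.05 (H2-M3) to 3.17 times (H2-K1). H2-Eb1, H2-DMb1 and H2-DMb2 lacked the pattern, with mutant replicate 3 at 1.53, 1.33 and 0.378 times. These are letter matches, no binding was measured, and any part of the patterns in the levels was not tested.

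The light chain gene B2m and the classical heavy chain genes H2-K1 and H2-D1 were the most abundant members by mean level. B2m, which every class I heavy chain needs to reach the surface, had 935, 914 and 1223 units in control replicates 1 to 3 and 887, 751 and 2379.6 units in mutant replicates 1 to 3. Its value in mutant replicate 3 was 1.95 times the next highest, and the other 2 mutant libraries lay below every control. The log2 difference, mutant minus control on log2(value + 1), was 0.20 ± 0.45 (SE, adjusted p = 0.871 in limma) and -0.31 without mutant replicate 3.

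H2-K1, a classical heavy chain gene, had 339.8, 341 and 440.4 units in controls against 525, 376 and 1663 in the mutants. Mutant replicates 1 and 3 lay above all controls and mutant replicate 2 lay within their range. The log2 difference was 0.89 ± 0.53 (SE, adjusted p = 0.592 in limma) with all libraries and 0.26 without mutant replicate 3. H2-D1, the other classical chain gene of the reference genome, had 458, 260.1 and 596 units in controls against 392, 324 and 1325 in the mutants. Without mutant replicate 3, whose value was 2.22 times the next highest, the direction of H2-D1 turned from 0.41 to -0.22. The longest reference transcripts of H2-K1 and H2-D1 were identical at 88.2% of 1513 aligned bases, and how reads shared between them were assigned is not stated.

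H2-L, the classical heavy chain gene that only some haplotypes carry, split the control group. It had 96.7 and 97.9 units in control replicates 1 and 3, but 0.452 units in control replicate 2 and 0.311, 0.115 and 0.875 units in the 3 mutant libraries. The highest value was 855 times the lowest. H2-L made up 10.8 and 8.63% of the summed units of H2-K1, H2-D1 and H2-L in control replicates 1 and 3 and between 0.0164 and 0.0752% in the other 4 libraries. The log2 difference was -4.11 ± 1.56 (SE, adjusted p = 0.589 in limma), since control replicate 2 lay with the mutant libraries. Without control replicate 2 it was -6.13 and passed (adjusted p = 0.00614 in limma), in a fit that called 0.0336% of all genes, and over all single libraries left out the adjusted p ranged from 0.00614 to 0.827. Presence of this transcript by library can follow the animals' haplotype, which the labels do not give, and the part of haplotype in these values was not tested.

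The ratio of H2-K1 to H2-D1 divided the libraries in the same way. It was 0.742 and 0.739 in control replicates 1 and 3, 1.31 in control replicate 2 and 1.34, 1.16 and 1.26 in the mutant libraries. In the libraries with H2-L, H2-D1 stood above H2-K1, and in the other 4 it stood below. No reference transcript of H2-L was available, so its match to H2-D1 could not be measured. The part of reads shared between H2-L and H2-D1 in this ratio was not tested. Between groups the ratio overlapped (exact permutation test over 3 against 3 libraries, two-sided p = 0.3, where the smallest p possible is 0.1). A search of the whole table for genes of at least 5 units in both of these control libraries and 8 times lower or more in the other 4 found 3 genes, chosen after the values were seen. They were H2-L, the pseudogene Gm6644 (13.96 and 11.5 against at most 1.41 units) and Pla2g2a, a Paneth cell phospholipase gene that is inactive in some inbred strains (17763 and 3725 against at most 234 units).

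**Figure D2:**
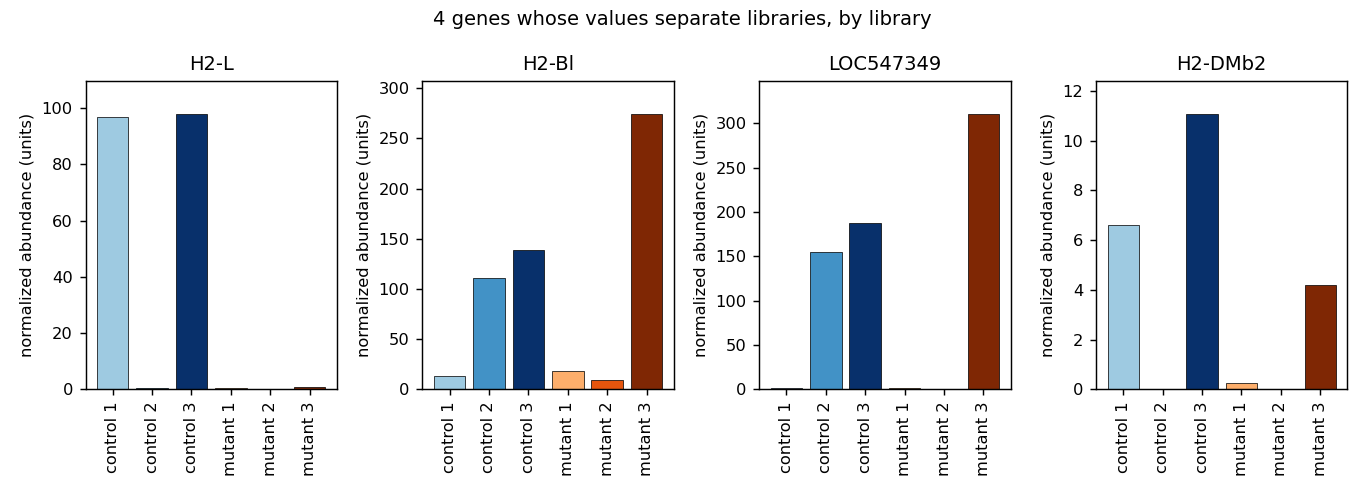
Normalized abundance (units, linear axes from 0) of H2-L, H2-Bl, LOC547349 and H2-DMb2 by library, 1 bar per library. H2-L is high in control replicates 1 and 3 alone, and H2-Bl and LOC547349 are high in control replicates 2 and 3 and mutant replicate 3.

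H2-Bl, a class I-like gene of the T region annotated as a pseudogene in the reference strain, divided the libraries along another line. It had 13.04, 111 and 139 units in controls against 18.4, 9.64 and 274 in the mutants, so 2 control libraries and 1 mutant library were high. LOC547349, a class I gene of RefSeq without the H2- prefix, was the only other gene in the table of at least 5 units in these 3 libraries and 4 times lower or more in the other 3, and it was found after the values were seen. The limits of 4 times here and 8 times for H2-L were set for each pattern. Other divisions of the libraries were not searched, so these counts do not show that such patterns are rare. It had 1.45, 155 and 188 units in controls against 1.80, 0.814 and 311 in the mutants. Within a library the ratio of H2-Bl to H2-D1 was 0.426, 0.232 and 0.207 in the high libraries and 0.0285 to 0.0470 in the low ones. The direction of H2-Bl between groups rested on single libraries, with a log2 difference of -0.65 ± 1.36 (SE, adjusted p = 0.862 in limma), -2.07 without mutant replicate 3 and 0.28 without mutant replicate 2. The H2-Bl transcript matched H2-D1 at 90.3% of 998 aligned bases. Control replicate 3 was high for both H2-L and H2-Bl, control replicate 1 for H2-L alone, control replicate 2 and mutant replicate 3 for H2-Bl alone, and mutant replicates 1 and 2 for neither.

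All 9 genes of the Q region, which encode Qa class Ib chains, were tested and all 9 were highest in mutant replicate 3. 7 had a mutant mean above and 2 below the control mean on the log2 scale, with a median log2 difference of 0.47 (0.03 without mutant replicate 3), beside -0.02 over all genes tested. The most abundant were H2-Q2 and H2-Q1. H2-Q2 had 110.3, 108 and 213 units in controls against 201, 100.4 and 332 in the mutants. H2-Q1 had 51.4, 49.0 and 132 units in controls against 104, 47.9 and 182 in the mutants. Both were high in control replicate 3 and in mutant replicates 1 and 3, and low in the other 3 libraries.

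H2-Q4 had 61.6, 32.1 and 73.4 units in controls against 44.0, 42.7 and 140.1 in the mutants. H2-Q5, a transcribed pseudogene in RefSeq, had 16.3, 7.61 and 30.0 against 15.1, 9.83 and 34.4 units. The groups overlapped for both, and both changed direction without mutant replicate 3 (log2 differences of -0.27 and -0.33). H2-Q10, which encodes a secreted class I chain best known from the liver, had 4.65, 5.24 and 6.82 units in controls against 6.65, 8.9997 and 11.2 in the mutants. Its log2 difference of 0.59 ± 0.22 (SE, adjusted p = 0.589 in limma) had the smallest unadjusted p of the 29, and it stayed above 0 at 0.43 without mutant replicate 3. A single control value lay above the lowest mutant value.

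H2-Q6, H2-Q7, H2-Q8 and H2-Q9 form a set of closely related Qa-2 genes, and the reference transcripts of H2-Q7 and H2-Q6 were identical at 94.6% of 1030 aligned bases. H2-Q7 had 10.9, 3.24 and 11.2 units in controls against 9.46, 8.35 and 33.1 in the mutants. H2-Q8 was listed at 0 in control replicate 2 and had 1.76 and 5.72 units in control replicates 1 and 3 and 4.64, 3.23 and 26.3 units in mutant libraries. H2-Q6 was listed at 0 in mutant replicate 1, with 0.965 and 10.51 units in the other mutant libraries and 4.44, 3.21 and 3.73 units in control libraries. H2-Q9 had 3.35, 5.73 and 11.2 units in controls against 1.38, 2.55 and 24.5 in the mutants. The log2 differences of H2-Q8 and H2-Q6 pointed opposite ways, at 1.71 ± 0.89 and -0.75 ± 0.82 (SE, adjusted p of 0.589 and 0.718 in limma). Leaving out single libraries moved H2-Q8 between 0.88 (without mutant replicate 3) and 2.38 (without control replicate 3), and H2-Q6 between -1.77 (without mutant replicate 3) and -0.0032 (without mutant replicate 1). How the authors' counting divided reads between such near copies is not stated in the labels or headers, so the separate values are uncertain.

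Of 8 T-region members, 7 were tested, 4 of them higher and 3 lower in mutant libraries by a median log2 of 0.23 (-0.29 without mutant replicate 3). H2-T23 encodes Qa-1, a ligand of the NKG2A receptor of natural killer and CD8 T cells, and was the most abundant on average. It had 147, 72.1 and 161 units in controls against 165, 109 and 407 in the mutants, a log2 difference of 0.69 ± 0.53 (SE, adjusted p = 0.629 in limma) and 0.16 without mutant replicate 3. H2-T-ps, a close copy of it at 95.6% of 1068 aligned bases, had 2.81, 3.09 and 5.39 units in controls against 2.88, 1.61 and 8.25 in the mutants.

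H2-T3 encodes the thymus leukaemia antigen, a class Ib molecule of the intestinal epithelium that binds the CD8 alpha homodimer of intraepithelial lymphocytes. It had 52.1, 35.8 and 96.1 units in controls against 87.7, 55.9 and 68.1 in the mutants. It was the only tested class Ib gene not highest in mutant replicate 3, which lay below mutant replicate 1 and below control replicate 3, the highest library. The log2 difference was 0.29 ± 0.36 (SE, adjusted p = 0.758 in limma) and 0.31 without mutant replicate 3, so that library did not carry it.

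H2-T22 encodes a class Ib chain read by gamma delta T cells and had 35.7, 18.4 and 34.2 units in controls against 29.3, 25.3 and 63.9 in the mutants. H2-T10, its copy at 96.3% of 1532 aligned bases, was about an order of magnitude lower, at 1.51, 2.28 and 3.17 against 0.886, 1.08 and 3.93 units. H2-T24 had 6.31, 2.37 and 5.11 against 4.31, 2.56 and 11.8 units. In all 3 genes mutant replicate 3 was highest and the groups overlapped. H2-T9, below a mean of 1 unit, was listed at 0 in control replicate 1 and mutant replicate 1, with 0.643 and 1.96 units in control replicates 2 and 3 and 0.105 and 1.23 units in mutant replicates 2 and 3.

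The M region was near silent. Of its 12 members 1 was tested, H2-M3, which presents bacterial N-formyl peptides. H2-M3 had 5.38, 2.64 and 5.03 units in controls against 3.57, 3.57 and 5.64 in the mutants, a log2 difference of -0.0056 ± 0.27 (SE, adjusted p = 0.995 in limma). H2-M1, H2-M9, H2-M10.4 and H2-M10.5 were at 0 in all libraries. H2-M10.1 had 0.0643, 0.0625 and 0.135 units in control libraries and was listed at 0 in all 3 mutant libraries, the only M-region gene whose groups did not overlap, at levels of only a few reads. The others with any signal were H2-M2, at 0.268 to 1.104 units, and 5 genes (H2-M5, H2-M11, H2-M10.2, H2-M10.3 and H2-M10.6) that stayed under 0.5 units. The class I pseudogene H2-K2 of the K region had 4.29, 2.82 and 4.67 units in controls against 3.58, 4.34 and 12.98 in the mutants.

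Class II genes were abundant in these epithelial libraries. H2-Aa and H2-Ab1, which encode the alpha and beta chains of the A molecule, had mean levels close to each other. H2-Aa had 167, 109.9 and 309 units in controls against 233, 75.8 and 668 in the mutants. H2-Ab1 had 152, 123 and 258 units in controls against 246, 102 and 580.3 in the mutants. H2-Eb1, the beta chain of the E molecule, had 116, 57.3 and 157 units in controls against 102, 44.0 and 241 in the mutants. For all 3 genes mutant replicate 2 was the lowest library, mutant replicate 3 the highest, and the other 4 lay between.

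The log2 differences of H2-Aa, H2-Ab1 and H2-Eb1 were 0.35 ± 0.77, 0.53 ± 0.61 and 0.017 ± 0.64 (SE, adjusted p of 0.868, 0.736 and 0.994 in limma). Without mutant replicate 3 they turned to -0.42, -0.090 and -0.59, and none of the 6 tested class II genes was then higher in mutant libraries. H2-Ea-ps, the alpha chain gene of the E molecule, annotated as a pseudogene in the reference, was at 0 in all 6 libraries, so the partner of H2-Eb1 was not seen in any. H2-Eb2, a second E beta gene, stayed between 0.0208 and 0.845 units, with its highest value in mutant replicate 3.

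Genes of class II peptide loading were lower than the chains they serve. H2-DMa and H2-DMb1 encode the chains of H2-M, which exchanges the invariant chain fragment for peptide. H2-DMa had 27.5, 19.0 and 34.5 units in controls against 30.2, 12.6 and 31.9 in the mutants. H2-DMb1 had 32.0, 22.98 and 47.8 against 42.5, 19.7 and 63.7 units. Mutant replicate 2 was lowest for both, and mutant replicate 3, which led the A chains by more than 2-fold over the next library, led H2-DMb1 by 1.33 times and did not lead H2-DMa.

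H2-DMb2, a second beta chain gene whose transcript matched H2-DMb1 at 95.4% of 848 aligned bases, separated libraries again. It had 6.61 and 11.1 units in control replicates 1 and 3 and was listed at 0 in control replicate 2. In mutant replicates 1 to 3 it had 0.233, 0 and 4.19 units. H2-DMb2 stood at 0.207 and 0.232 of H2-DMb1 in control replicates 1 and 3, at 0.0658 in mutant replicate 3 and at 0.00548 or 0 in the rest. The log2 difference was -1.28 ± 1.02 (SE, adjusted p = 0.642 in limma), -2.37 without control replicate 2 and -0.57 without control replicate 3. H2-Oa and H2-Ob encode H2-O, a brake on H2-M known from B cells, and neither reached a mean of 1 unit. H2-Oa had 0.0787, 0.0765 and 0.718 units in controls against 0.316, 0 and 1.24 in the mutants. H2-Ob, named after its values were seen, had 0.220, 0.0535 and 0.851 against 0.166, 0.0204 and 3.76 units. The B cell genes Cd79a (1.61, 0.0824 and 5.71 against 0.596, 0.250 and 14.2 units) and Ms4a1 were highest in the same libraries, mutant replicate 3 and then control replicate 3. That order was not particular to B cell genes. The T cell gene Cd3e and the general leukocyte gene Ptprc shared it, while the leukocyte markers Itgam and Lyz2 did not.

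H2-Ke6 carries the prefix by its position but encodes a hydroxysteroid dehydrogenase, not an MHC molecule. It had 27.4, 21.7 and 28.8 units in controls against 18.6, 22.8 and 22.3 in the mutants. Its highest value was 1.55 times its lowest, the narrowest range of the 29 tested genes, and mutant replicate 3 lay among the other libraries.

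**Figure D3:**
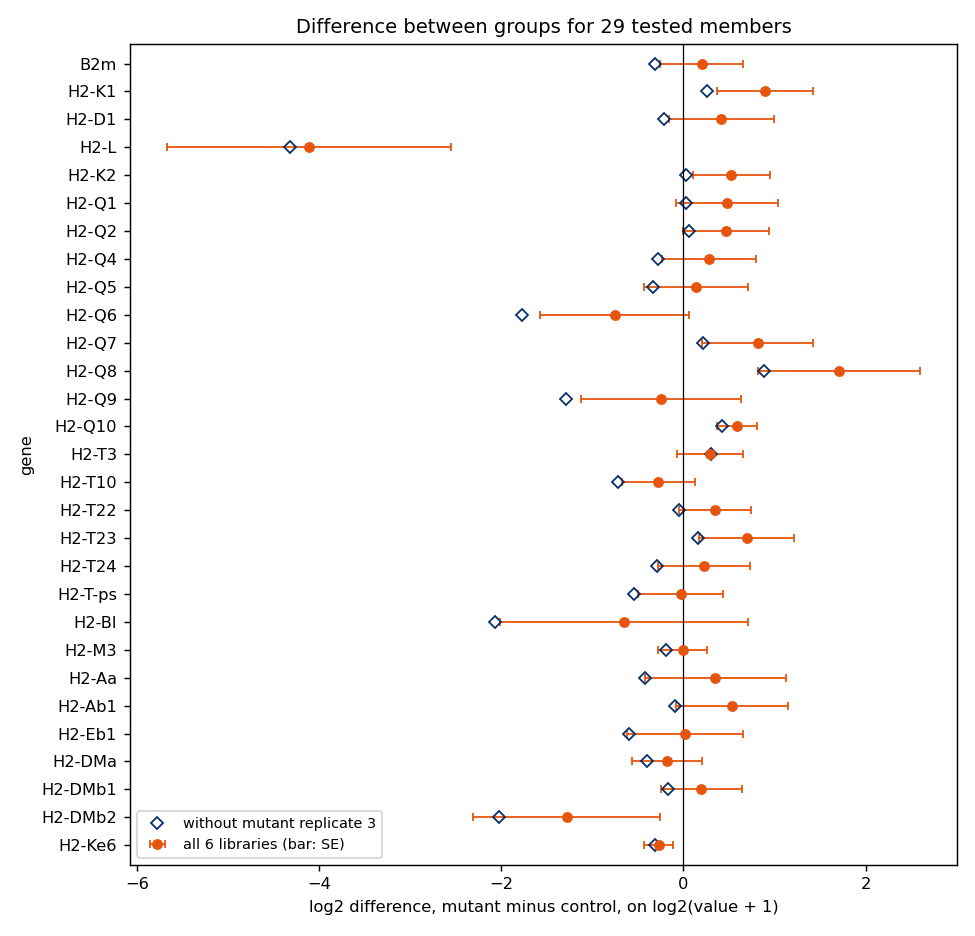
Log2 difference between mutant and control libraries on log2(value + 1) for the 29 tested genes (filled circles with SE bars) and the same without mutant replicate 3 (open diamonds). With all libraries 19 genes lie right of 0, and without mutant replicate 3 9 do.

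Over the 29 tested members, 19 were higher and 10 lower in mutant libraries, with a median log2 difference of 0.23, where 47.3% of all genes tested were higher. Without mutant replicate 3, 9 were higher and 20 lower with a median of -0.27, where 49.7% of all genes tested were higher. The direction of the median rested on more than that library, at -0.038 without control replicate 2, 0.59 without mutant replicate 2 and -0.098 with array weights, which weigh libraries by their spread. The median over the 21 tested class I chains was 0.29 with all libraries and -0.19 without that library, and over the 6 tested class II genes it was 0.11 and -0.41.

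Summed by class, the same library led. The 33 class I chains summed to 1429, 1067 and 2078 units in controls against 1620.2, 1138 and 4642 in the mutants. The 10 class II genes summed to 501, 332 and 819.5 units in controls against 654, 254 and 1595 in the mutants. The order of libraries, from mutant replicate 3 and control replicate 3 at the top to control replicate 2 and mutant replicate 2 at the bottom, was shared by both classes except for the last 2 places.

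The makeup of the class I pool varied less than its size. Classical chains made up 54.6 to 62.6% of class I units in controls against 56.6 to 64.4% in the mutants. Q-region chains made up 18.5 to 23.4% and 17.1 to 23.9%, and T-region chains 18.1 to 22.996% and 18.0 to 19.0%. The ratio of class II to class I units was 0.311 to 0.394 in controls against 0.224 to 0.404 in the mutants, with overlap. Relative to the summed epithelial genes, class I units were 30.5, 20.6 and 36.3% in controls against 25.2, 21.4 and 65.3% in the mutants.

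**Figure D4:**
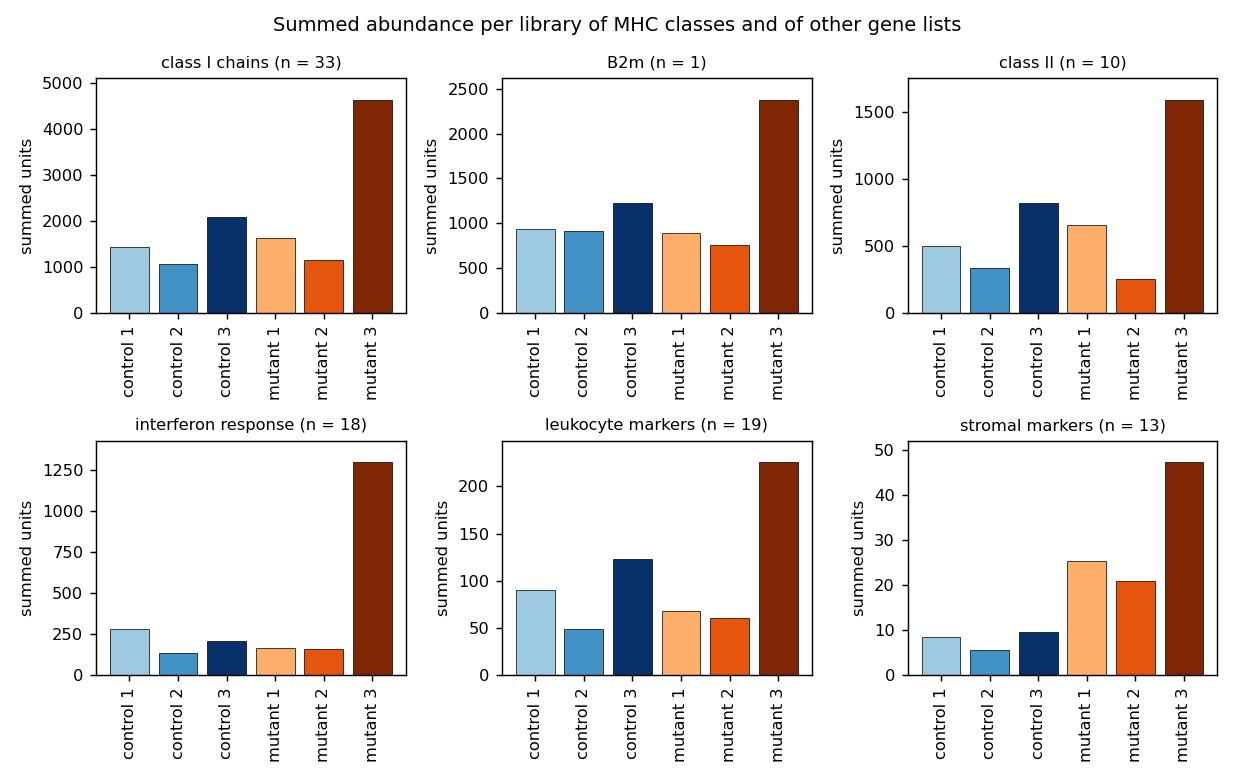
Summed abundance (units, linear axes from 0) by library for class I chains, B2m, class II genes, interferon response genes, leukocyte markers and stromal markers, 1 bar per library. Mutant replicate 3 is highest in all 6 panels, and the stromal sums of all 3 mutant libraries, at 20.8 to 47.3 units, exceed the control sums.

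Genes that supply peptides and load class I molecules were taken as a list of 13, all of them tested. In mutant libraries 8 had higher and 5 lower means, with 0 called over all genes, and the median log2 difference was 0.05. Without mutant replicate 3 the tally turned to 5 higher and 8 lower, with a median of -0.036. Tapbp, the tapasin gene that bridges class I chains to the peptide transporter, had 54.7, 47.6 and 65.9 units in controls against 84.5, 47.4 and 181 in the mutants (log2 difference 0.68 ± 0.45 SE, adjusted p = 0.607 in limma, and 0.18 without mutant replicate 3). Psmb8 and Psmb9, which encode catalytic subunits of the immunoproteasome, had lower mutant means. Psmb9 had 137, 92.9 and 152 units in controls against 84.1, 74.7 and 121 in the mutants (-0.45 ± 0.26, adjusted p = 0.590 in limma). Psmb8 had 125, 81.2 and 165 against 74.3, 58.8 and 127 units (-0.53 ± 0.36, adjusted p = 0.613 in limma). Control replicate 3 was highest for Psmb8 and Psmb9. Psmb10, the remaining catalytic subunit gene of the immunoproteasome, named after its values were seen, was highest in mutant replicate 3 and had a log2 difference of 0.016 ± 0.17 (SE, adjusted p = 0.976 in limma).

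The 10 partners and regulators of class II included the invariant chain gene Cd74, which had 734, 452 and 1129 units in controls against 748, 337 and 1510.3 in the mutants. Ciita, the master transactivator of class II genes, had 7.82, 3.46 and 9.32 against 5.84, 3.73 and 6.31 units, and was highest in control replicate 3. Nlrc5, the corresponding activator of class I genes, had 3.48, 0.735 and 3.86 against 1.48, 1.49 and 10.31 units, with its highest value in mutant replicate 3. The protease genes Ctsl and Ctss had log2 differences of 0.48 ± 0.26 and 0.57 ± 0.46, and Rfxank, a subunit of the RFX complex that binds MHC promoters, 0.16 ± 0.18 (SE, adjusted p of 0.590, 0.649 and 0.724 in limma). Means of 7 were higher and of 3 lower, with 0 of the 10 called over all genes and a median of 0.070. Without mutant replicate 3, 5 were higher and 5 lower, the median was -0.043 and Ctss stood at 0.060 and Ctsl at 0.20.

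Ratios to H2-Ab1 were taken for Cd74, H2-Eb1, H2-DMa and H2-Aa, and all share that denominator. No such ratio was taken for H2-DMb1, the other chain of H2-M, so the H2-DMa ratio does not describe H2-M as a whole. The log2 differences of H2-DMa and H2-DMb1 pointed opposite ways, at -0.18 and 0.20 (-0.40 and -0.17 without mutant replicate 3). The ratio of Cd74 to H2-Ab1 was 4.83, 3.68 and 4.38 in controls against 3.04, 3.30 and 2.60 in the mutants. The ratio of H2-Eb1 to H2-Ab1 was 0.762, 0.467 and 0.611 against 0.413, 0.431 and 0.415, and that of H2-DMa to H2-Ab1 0.181, 0.155 and 0.134 against 0.123, 0.124 and 0.0550. In these 3 ratios every mutant value lay below every control value. Among the 16 ratios taken, the same held for H2-L as a percentage of H2-K1, H2-D1 and H2-L. The exact permutation test gave its smallest possible two-sided p of 0.1 (0.4 after Benjamini-Hochberg adjustment over 16 ratios), so none passed. The ratio of H2-Aa to H2-Ab1 overlapped, at 0.896 to 1.201 in controls against 0.742 to 1.151 in the mutants. H2-Eb1 stood highest against H2-Ab1 in control replicates 1 and 3, the libraries with H2-L, and control replicate 2 was the control nearest to the mutant libraries.

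**Figure D5:**
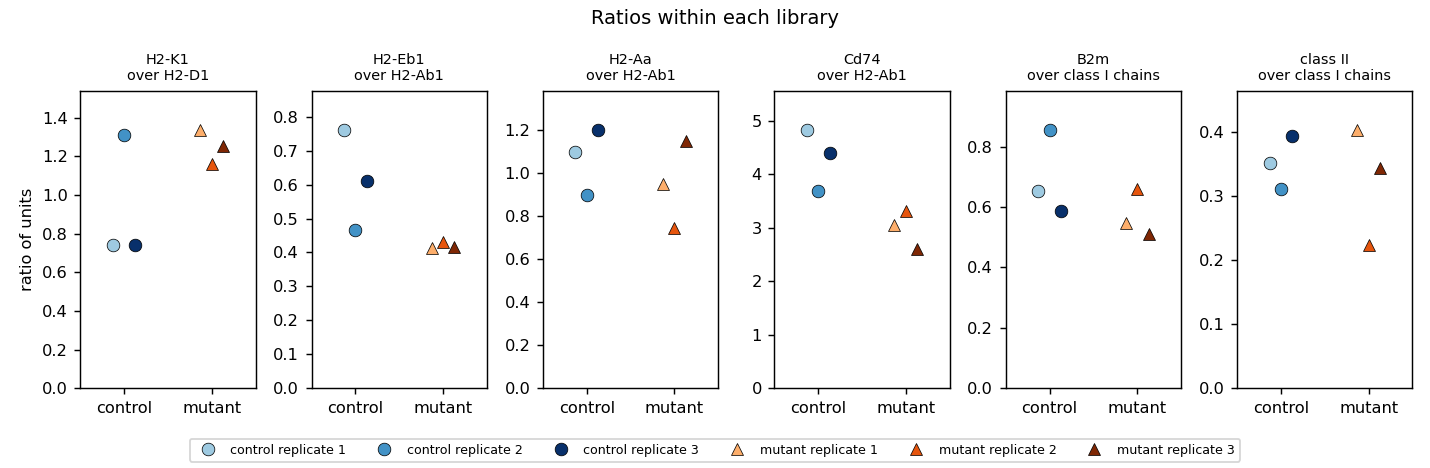
Ratios of units within each library (axes from 0), control libraries as circles and mutant libraries as triangles. The ratios of H2-Eb1 and of Cd74 to H2-Ab1 do not overlap between groups, and the ratio of H2-K1 to H2-D1 places control replicates 1 and 3 at 0.742 and 0.739, below the other 4 libraries.

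Interferon response genes shared their highest library with the MHC genes, but not the order of the others. Their 18 genes summed to 280.0, 136 and 208 units in controls against 166, 160.3 and 1294 in the mutants, so mutant replicate 3 was 4.62 times the next highest, control replicate 1. All 17 tested members were highest there. 15 were higher and 2 lower in mutant libraries with a median log2 difference of 0.64, while 0 passed over all genes, and without mutant replicate 3, 2 were higher and 14 lower with a median of -0.28. Cxcl10, a chemokine gene, had 0.813, 0.287 and 0.415 units in controls against 1.11, 0.874 and 9.76 in the mutants. Gbp2, a guanylate-binding protein gene, had 1.65, 0.961 and 2.17 against 2.47, 2.26 and 5.61 units, and Socs1, a feedback inhibitor of cytokine signalling, 1.53, 1.17 and 0.936 against 1.67, 1.33 and 7.30 units. The mutant values of Cxcl10 and Gbp2 lay wholly above the control values, which held for 2 of the 17 tested, beside 8.34% of all genes tested. Cxcl10 had a control mean of 0.505 units and passed the filter of 1 unit only through the mutant libraries. The adjusted p of Cxcl10, Gbp2 and Socs1 were 0.589, 0.589 and 0.600 in limma.

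Summed markers of other cell types also differed between libraries. The leukocyte sum shared its highest libraries with the MHC sums, while the stromal sum divided by group. The 19 leukocyte markers summed to 90.3, 49.1 and 123 units in controls against 68.2, 60.2 and 225 in the mutants, which places mutant replicate 3 and control replicate 3 at the top, as for the class I and class II sums. Of the 16 tested, 15 were highest in mutant replicate 3, and Adgre1 was at 0 in control replicate 2. The 13 stromal markers summed to 8.49, 5.51 and 9.58 units in controls against 25.4, 20.8 and 47.3 in the mutants. The mutant values lay wholly above the control values for all 6 tested, with 0 of the 6 called at an adjusted p of 0.05. Of these, Col1a2, Col3a1, Dcn, Sparc and Mgp had control means of 0.030 to 0.61 units and passed the filter of 1 unit only through the mutant libraries. The tally therefore cannot be set against the share of all genes tested (8.34%). Below the filter, Pdgfrb, Pecam1 and Cdh5 overlapped between groups, and Col1a1, Lum, Pdgfra and Acta2 lay wholly above in the mutants. Pdgfra was at 0 in all controls, and Col1a2, Lum, Mgp and Cdh5 were at 0 in at least 1 library. The part of leukocytes, stroma and interferon in the MHC levels was not tested, and in bulk tissue more cells of a type cannot be told apart from more RNA per cell.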

How the data were processed

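Poly-A messenger RNA of mouse crypt epithelium was sequenced, per the labels' protocols, in 3 mutant and 3 control libraries. The deposited values are a signal, a normalized abundance made by the authors; kallisto 0.46.1, DESeq2 1.40.1 and the mm9 build appear in the submitters' processing notes with no role given. Each table column was assigned by its group name and number, with the columns not named control taken as mutant, the only other group. The table had 0 value columns without a sample.

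Values were transformed to log2(x + 1), and the 11837 genes averaging 1 unit or more were tested with limma 3.58.1 in R 4.3.3 (trended prior variance, a 2-group design without covariates, Benjamini-Hochberg at 0.05 over all genes). Members and lists were chosen with earlier results of these data known. The rule named all tested members, lower members at 0 in a library and at 0.5 units or more in another or with groups that did not overlap, 3 genes of each pathway list by p, and Cd74, Ciita and Nlrc5. The test was tested on simulated data. Transcripts of GENCODE (41 of 45 members) were compared with BLAST+ 2.17.0, and promoters came from RefSeq, GRCm38.p6, a build other than the authors'. Sums and ratios used pandas 2.3.3 and NumPy 2.4.6 under Python 3.11.15, and figures matplotlib 3.10.9.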

Additional observations from a re-analysis of the deposited data

How the results depend on the processing

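No MHC gene rose in any fit, and H2-L alone fell in 1, so that 0 to 1 fell when single libraries were left out. Over all genes, leaving out single libraries gave 0 to 2 that rose and 0 to 3 that fell, against 0 and 2 with all libraries. Genes that rose numbered 1 with a pseudocount of 0.1, 1 with 5, 20 with array weights and 4 at an adjusted p under 0.1. Those that fell numbered 1 with upper-quartile scaling, 7 with array weights and 0 with no filter, with a pseudocount of 5 and with a replicate block. Same-numbered libraries had correlations of -0.292, 0.333 and 0.325 between their deviations from the group means, and other pairs had -0.487 to 0.212. The labels do not say whether a shared number marks a shared litter or batch, and these values cannot decide it. The block called 0 members. Medians ran from -0.27 to 0.59 over all tested members, -0.19 to 0.59 over class I chains and -0.41 to 0.65 over class II genes when single libraries were left out. The direction held for all 29 members under both rescalings, the block and no filter. With array weights it turned for B2m (-0.14), H2-D1 (-0.10), H2-K2 (-0.058), H2-Q4 (-0.28), H2-Q5 (-0.10), H2-T22 (-0.030), H2-T24 (-0.14), H2-Eb1 (-0.13) and H2-DMa (0.074), with a pseudocount of 5 for H2-T-ps (0.024) and with 0.1 for H2-M3 (0.000547). Leaving out single libraries turned the direction of 16 members, and the cause was not tested. Their log2 differences then ran from -0.31 to 0.52 for B2m, -0.22 to 0.80 for H2-D1, -0.27 to 0.57 for H2-Q4, -0.34 to 0.59 for H2-Q5, -1.29 to 0.42 for H2-Q9, -0.029 to 0.67 for H2-T3, -0.051 to 0.60 for H2-T22, -0.29 to 0.63 for H2-T24, -0.54 to 0.37 for H2-T-ps, -2.07 to 0.28 for H2-Bl, -0.26 to 0.14 for H2-M3, -0.42 to 1.14 for H2-Aa, -0.090 to 1.16 for H2-Ab1, -0.59 to 0.62 for H2-Eb1, -0.40 to 0.23 for H2-DMa and -0.17 to 0.65 for H2-DMb1. The count tests planned for a table of counts were not run, since the values are not counts.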
